A study of Mus musculus with 6 samples.

Results

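A set of 9 neuronal genes was followed in cultured mouse dermal cells: Neurog2, which encodes a proneural transcription factor, the microtubule genes Dcx, Map2, Tubb3 and Stmn2, the neurofilament genes Nefl and Nefm, the growth cone gene Gap43 and the vesicle fusion gene Snap25. They were chosen by name, as probe sets whose annotation gave exactly 1 of these symbols. Each of the 9 genes had 1 such probe set, among 19938 genes tested. Total RNA came from neonatal skin of C57BL/6 mice, as dermal cells kept for 2 days in culture. The FR group received forskolin and Repsox together, each at 20 µM, and the DMSO group, labelled after the solvent, did not, with 3 one-colour arrays in each. Forskolin switches on adenylyl cyclase, the enzyme that makes cyclic AMP, while Repsox blocks the type I receptor kinase for TGF-β. Both compounds act together in FR, so the change cannot be assigned to one of them. Whether each array stands for its own culture or animal is not in the labels, so the p-values rest on array-to-array spread alone, which may be technical.

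As background, proneural factors of the basic helix-loop-helix class switch progenitors to neuronal fate, and young neurons then build axons from microtubules and neurofilaments and fit their endings with vesicle fusion proteins. Several of these genes are also used outside neurons, in muscle, endocrine, neural crest and migrating mesenchymal cells. Forskolin and Repsox have both been used in mixtures of small molecules that turn cultured human fibroblasts into neuron-like cells. The comparison of FR with DMSO asks what the pair changed in dermal cells.

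With FR the neuronal genes moved in opposite directions. Tubb3 was 3.29-fold lower, Stmn2 2.48-fold higher and Gap43 1.40-fold higher. Snap25 was also higher, but its DMSO level lay in the range of olfactory receptor genes, used here as background. With DMSO set to the upper level of that range, Snap25 was 1.67-fold higher. Nefl and Nefm also passed as higher, but with both groups in that range, so no fold is given. Neurog2, Dcx and Map2 did not pass the test. The test was limma on log2 RMA values, FR minus DMSO, with p-values adjusted over all genes by the Benjamini-Hochberg method and a threshold of 0.05. Of the 9 genes, 5 passed as higher and 1 as lower, where 13.4% of all genes passed as higher, 14.5% as lower and 27.9% in either direction. In RNA from whole cultures, fewer cells of a type and less RNA per cell cannot be told apart. The median log2 change was 0.39 over the 9 genes and 0.05 over all genes.

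The array values carry no detection call, so levels were read against 1027 olfactory receptor genes, whose main place of use is the nose. In the DMSO arrays, 95% of these genes had mean levels under 5.65, and in the FR arrays under 5.92. The mark of 5.65 was used for both groups. By that mark 5 of the 9 genes were dim in both groups (Neurog2, Dcx, Map2, Nefl and Nefm), Snap25 was dim in DMSO only, and Tubb3, Stmn2 and Gap43 were above it in both. Olfactory receptor genes themselves had a median log2 change of 0.14, and 9.93% of them passed as higher and 0.584% as lower. Their log2 changes ran from -0.72 to 0.72. With dim genes filtered out, 2221 of 12544 genes passed as higher and 3209 as lower, or 43.3% in either direction. The shares of all genes given below are therefore not a matched background for lists of mostly bright or mostly dim genes. Levels of different genes come from different probes and are not compared with each other here.

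**Figure D1:**
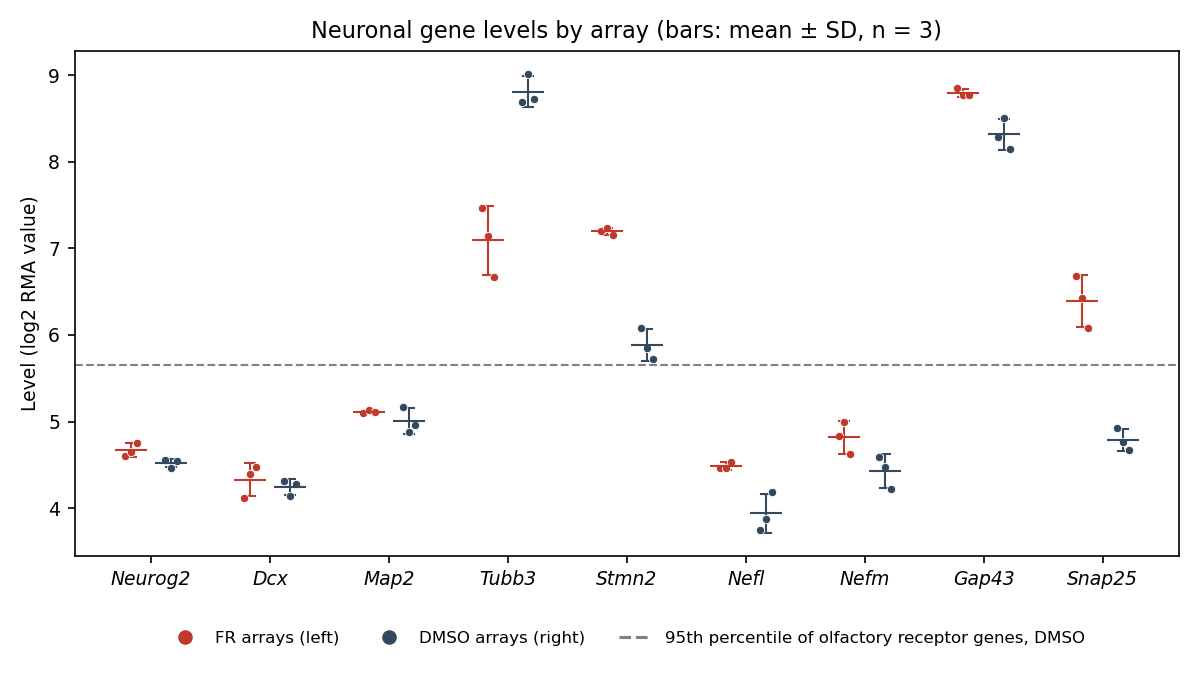
Level of the 9 neuronal genes (y axis, log2 RMA value) in each array, with the 3 FR arrays left of the 3 DMSO arrays; bars give mean ± SD and the dashed line the level of 5.65 under which 95% of olfactory receptor genes lay in DMSO. Tubb3 was lower in FR, Stmn2, Gap43 and Snap25 were higher, and the other 5 genes lay under the line on every array.

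Neurog2 stood at 4.60, 4.65 and 4.76 in the FR arrays, against 4.55, 4.47 and 4.55 in the DMSO arrays. All 3 FR values lay above the DMSO values, with a gap of 0.043 between the groups, and all 6 were in the range of olfactory receptor genes. The log2 change was 0.14 (95% interval -0.04 to 0.33, limma adjusted p = 0.223), and 48.9% of olfactory receptor genes had a change at least as high. Groups that do not overlap were common: FR lay wholly above DMSO for 23% of all genes and wholly below for 20.9%. The related proneural genes had log2 changes of 0.14 for Neurog1 (adjusted p = 0.243) and 0.23 for Neurog3 (adjusted p = 0.0691), with both group means under 5.65.

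Other transcription factors of neuronal differentiation passed in 5 of 23 measured cases, 4 higher and 1 lower. That was 21.7% of the list, where 27.9% of all genes passed. By direction, 17.4% of the list was higher and 4.35% lower, beside 13.4% and 14.5% of all genes. Of the 23, 16 were dim in both groups, and 2 of these passed, so all genes are not a matched background. Among all genes dim in both groups, 10.6% passed as higher and 1.57% as lower. The LIM homeobox gene Isl1 rose by 0.39 on the log2 scale (adjusted p = 0.00833), the neural progenitor gene Sox11 by 0.37 (adjusted p = 0.00603), the proneural gene Atoh1 by 0.37 (adjusted p = 0.0494) and the autonomic neuron gene Phox2a by 0.36 (adjusted p = 0.038). Atoh1 and Phox2a were dim in both groups, and Atoh1 no longer passed when 1 array was left out, be it FR replicate 2 or 3 or any DMSO replicate (adjusted p from 0.0532 to 0.177). Phox2a no longer passed when FR replicate 1 or 2 or DMSO replicate 1 or 3 was left out (adjusted p from 0.0582 to 0.126). Sox4, a relative of Sox11, fell by 0.44 (adjusted p = 0.00434). Leaving out FR replicate 2, DMSO replicate 1 or DMSO replicate 3 left 2 genes that passed as higher, as did each of the 3 other scalings. The median log2 change of the 23 was 0.17, and 14 of them lay under 5.65 on every array.

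Another list held genes whose proteins partner or block proneural factors. Of 13 measured, 5 rose and 3 fell, and 1 was under 5.65 on every array, with a median log2 change of 0.19. The shares were 38.5% higher and 23.1% lower, beside 13.4% and 14.5% of all genes. The Id genes encode proteins that pair with basic helix-loop-helix factors and keep them off DNA. Id1 stood at 8.98, 8.82 and 8.73 in the FR arrays, against 7.54, 7.56 and 7.83 in the DMSO arrays, and rose 2.29-fold (adjusted p = 1.26e-05). Id2 rose by 1.12 on the log2 scale, Id3 by 0.72 and Id4 by 0.55. The Notch target Hey1, which encodes a repressor, rose by 0.61. The repressor gene Hes1, another Notch target that holds back neuronal differentiation, fell by 1.08 (adjusted p = 7.16e-06). Tcf12 and Tcf4, which encode partners that proneural factors need, fell by 0.52 and 0.27. Tcf4 no longer passed when FR replicate 1 or 2 or any DMSO replicate was left out (adjusted p from 0.0519 to 0.0943), or with quantile normalization (0.0587) or cyclic loess (0.0803).

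Rest encodes the repressor that silences neuronal genes in other tissues, working with corepressors and deacetylases. It stood at 8.75, 8.71 and 8.43 in the FR arrays, against 8.67, 8.68 and 8.55 in the DMSO arrays. The groups overlapped, and the 95% interval of the log2 change ran from -0.22 to 0.23 (adjusted p = 0.992). Of 11 repressor genes measured, 0 rose at the threshold and 4 fell, or 36.4%, beside 14.5% of all genes. They were the corepressor genes Rcor1 (log2 change -0.33) and Rcor2 (-0.32), the deacetylase gene Hdac1 (-0.30) and the phosphatase gene Ctdsp2 (-0.28). The second probe set of Hdac1 also gave -0.30, while that of Ctdsp2 gave -0.14. Ctdsp2 no longer passed with the mean of its probe sets (adjusted p = 0.0671), quantile normalization (0.0513) or cyclic loess (0.0752). The 4 that fell became 1 on leaving out FR replicate 2, FR replicate 3 or DMSO replicate 1. They became 2 on leaving out DMSO replicate 2, and 0 on leaving out DMSO replicate 3. Of the 11 repressor genes, 0 were dim in both groups. With dim genes filtered out, 5 of 11 fell, beside 3209 of 12544 genes.

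Tubb3 encodes class III β-tubulin, a subunit of neuronal microtubules that is widely used as a marker of young neurons and is also made by fibroblasts and tumour cells. Its level was 7.46, 7.15 and 6.67 in the FR arrays, against 8.69, 9.02 and 8.73 in the DMSO arrays. Every FR array lay below every DMSO array, with a gap of 1.23, and the FR arrays spread more widely, with means of 7.09 ± 0.40 in FR and 8.81 ± 0.18 in DMSO (SD, n = 3 each). The log2 change was -1.72 (SE 0.17, 95% interval -2.10 to -1.34, limma adjusted p = 3.31e-05). It was the 51st lowest change of the 19938 genes.

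The other β-tubulin genes measured with 1 symbol moved the same way or did not pass. Tubb2b, an isotype of developing neurons, stood at 6.81, 6.96 and 6.92 in the FR arrays, against 8.39, 8.47 and 8.29 in the DMSO arrays. Its log2 change was -1.48 (SE 0.09, adjusted p = 6.61e-07), or 2.80-fold lower, and its 95% interval of -1.68 to -1.29 overlapped that of Tubb3. Tubb6 fell by 0.57, Tubb2a by 0.42 and Tubb5, a broadly used isotype, by 0.42, with intervals that lay wholly above that of Tubb3. The difference between isotypes was not tested. Tubb4a, an isotype of mature brain, had a log2 change of -0.14 and did not pass (adjusted p = 0.381). β-tubulin genes are closely related, so their probe sets can share signal and single values are less certain. Among the α-tubulins, Tuba4a fell by 0.74 while Tuba8 rose by 0.81 (adjusted p = 9.02e-05). Of 7 general tubulin genes measured, 1 rose (Tuba8) and 2 fell (Tubb6 and Tubb5), with a median log2 change of -0.06. In either direction that was 42.9%, beside 27.9% of all genes. With dim genes filtered out, 3 of 6 passed, beside 43.3% of genes.

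Start regions of Map1b and Tubb2a, which fell beside Tubb3, and of Neurog2, which did not pass, are shown with that of Tubb3. They were picked by hand, and those of Map2 and Dcx are not shown. Neurog2 lay in the olfactory range on every array, where a fall could hardly be seen. Its window is therefore no contrast for the genes that fell. The sequences are those of RefSeq on GRCm38.p6 and run from 250 bases before to 50 bases after the gene start, 5′ to 3′ on the gene's strand. Capitals mark the motifs searched, on both strands: the cyclic AMP response element TGACGTCA and its shorter form TGACG, which lies inside it, the proneural E-box CAGATG, the SMAD box GTCTAGAC, the TATA box TATAAA, the GC box GGGCGG, the CCAAT box, and the CArG box bound by SRF. The Tubb3 window is chr8:123411303-123411602 on the + strand, that of Map1b chr13:99516553-99516852 on the - strand, that of Tubb2a chr13:34077959-34078258 on the - strand and that of Neurog2 chr3:127632886-127633185 on the + strand.
Tubb3: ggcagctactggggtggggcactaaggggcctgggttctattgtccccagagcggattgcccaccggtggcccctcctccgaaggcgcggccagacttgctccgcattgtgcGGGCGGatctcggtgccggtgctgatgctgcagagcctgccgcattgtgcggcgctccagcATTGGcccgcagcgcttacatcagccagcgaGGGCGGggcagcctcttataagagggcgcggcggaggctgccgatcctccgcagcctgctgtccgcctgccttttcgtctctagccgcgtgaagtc
Map1b: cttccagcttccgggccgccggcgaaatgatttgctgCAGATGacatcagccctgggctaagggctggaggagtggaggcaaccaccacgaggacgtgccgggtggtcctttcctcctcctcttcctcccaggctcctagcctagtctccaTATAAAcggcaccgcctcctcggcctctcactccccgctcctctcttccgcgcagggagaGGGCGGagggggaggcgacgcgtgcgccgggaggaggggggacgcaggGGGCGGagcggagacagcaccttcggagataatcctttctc
Tubb2a: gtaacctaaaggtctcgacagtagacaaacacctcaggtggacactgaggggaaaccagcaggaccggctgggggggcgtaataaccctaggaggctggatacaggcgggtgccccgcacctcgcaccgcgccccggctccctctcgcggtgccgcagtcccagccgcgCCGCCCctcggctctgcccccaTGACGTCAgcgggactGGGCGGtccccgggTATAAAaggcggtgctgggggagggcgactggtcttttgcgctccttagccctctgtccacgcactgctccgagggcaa
Neurog2: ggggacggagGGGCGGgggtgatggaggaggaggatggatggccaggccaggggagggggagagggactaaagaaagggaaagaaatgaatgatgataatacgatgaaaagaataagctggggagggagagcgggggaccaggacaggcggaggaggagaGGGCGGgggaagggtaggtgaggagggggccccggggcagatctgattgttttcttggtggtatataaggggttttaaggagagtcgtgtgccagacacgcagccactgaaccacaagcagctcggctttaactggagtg

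The Tubb3 window held 2 GC boxes, starting 138 and 46 bases before the gene start, and 1 CCAAT box on the other strand, 77 bases before it. GC boxes were found in 35.7% and CCAAT boxes in 37.4% of 32851 promoter windows of the same length. The Tubb2a window held 1 full cyclic AMP response element, 59 bases before the start, a motif found in 1.79% of windows. The same letters hold the short form TGACG on both strands, which 20.8% of windows have. The Map1b window held 1 CAGATG, found in 17.2% of windows. TATAAA stood in the Tubb2a and Map1b windows and in 13.6% of all windows, and the Neurog2 window held 2 GC boxes and no other motif searched. The SMAD box, in 0.213% of all windows, and the CArG box, in 1.63%, were in none of the 4. Windows were matched for 4 of the 9 genes, Map2 and Dcx being the others. A match of letters is a description and shows no binding.

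Dcx and Map2 encode proteins that coat and steady microtubules, in migrating young neurons and in dendrites. Dcx stood at 4.12, 4.39 and 4.48 in the FR arrays, against 4.31, 4.14 and 4.27 in the DMSO arrays, and the groups overlapped. Its log2 change was 0.09 (95% interval -0.15 to 0.32, limma adjusted p = 0.572). Map2 stood at 5.10, 5.14 and 5.11 in the FR arrays, against 5.17, 4.88 and 4.96 in the DMSO arrays, also overlapping. Its log2 change was 0.11 (95% interval -0.09 to 0.32, adjusted p = 0.393). Both genes lay within the olfactory range, both changes were under the olfactory median of 0.14, and both turned sign under cyclic loess (-0.012 for Dcx and -0.0095 for Map2). The intervals leave room for a small rise or fall of the array values. They set no limit on the change in transcript level, since a fall could hardly be seen in the olfactory range.

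Of their relatives, Map1b and Dclk1 fell and Mapt did not pass. Map1b, which encodes the microtubule protein of growing axons, stood at 8.59, 8.67 and 8.42 in the FR arrays, against 9.95, 10.09 and 9.89 in the DMSO arrays. The groups did not overlap, and the log2 change of Map1b was -1.42 (adjusted p = 1.77e-06), or 2.67-fold lower. Dclk1, the kinase relative of Dcx, fell by 0.32 (adjusted p = 0.0105), and the tau gene Mapt had a log2 change of 0.14 that did not pass (adjusted p = 0.301). Dpysl3 and Dpysl2, which encode collapsin response mediator proteins that link guidance cues to tubulin, fell by 1.16 and 0.79. Across the 24 neuronal tubulin and microtubule genes listed besides the members, 13 fell and 1, Stmn3, rose at the threshold, with a median log2 change of -0.35. The 13 that fell were 54.2% of the list, beside 14.5% of all genes. With dim genes filtered out, 12 of 17 fell, beside 3209 of 12544 genes.

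**Figure D2:**
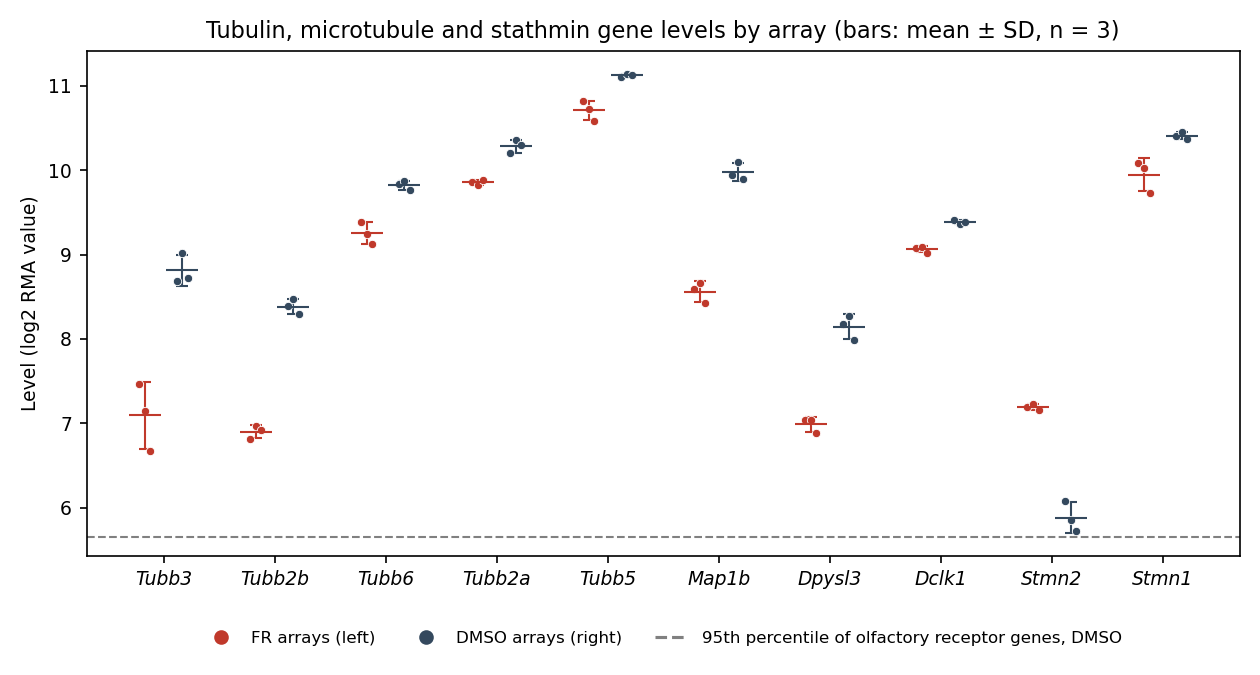
Level (y axis, log2 RMA value) of tubulin, microtubule and stathmin genes in each array, FR left of DMSO, with mean ± SD and the same dashed olfactory level. Tubb3, Tubb2b, Map1b and Dpysl3 were lower in FR by more than 1 on the log2 scale, the other β-tubulins by less, and Stmn2 was higher while Stmn1 was lower.

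Stmn2 encodes a stathmin of growth cones, a tubulin-binding protein that promotes microtubule turnover. Its level was 7.20, 7.23 and 7.16 in the FR arrays, against 6.08, 5.85 and 5.72 in the DMSO arrays. The FR arrays lay close together (SD 0.037) and all above DMSO, with a gap of 1.08. The log2 change was 1.31 (SE 0.10, 95% interval 1.09 to 1.53, limma adjusted p = 4.42e-06). Every DMSO array was above 5.65, but the DMSO mean of 5.88 was near that mark. In DMSO, 3.41% of olfactory receptor genes had a mean at least as high. Stmn1, the stathmin of dividing cells, fell by 0.46 (adjusted p = 0.00700). Its second probe set had nearly the same value on every array and gave -0.47, so it adds little as a separate reading. Stmn3 rose by 0.35 (adjusted p = 0.0409) on its brighter probe set, and the other gave 0.05. On the brighter one, the DMSO values of 5.79, 5.56 and 5.49 lay on both sides of 5.65. Stmn3 no longer passed when FR replicate 1 or 2 or DMSO replicate 2 or 3 was left out (adjusted p from 0.0996 to 0.142), and under all 3 other scalings. Stmn4 did not pass (log2 change 0.18, adjusted p = 0.338).

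Nefl and Nefm encode the light and medium neurofilament chains, which set the width of axons. Nefl stood at 4.46, 4.46 and 4.53 in the FR arrays, against 3.75, 3.88 and 4.19 in the DMSO arrays. The groups did not overlap, but all 6 values were under 5.65, and 37.7% of olfactory receptor genes had an FR mean at least as high. The log2 change was 0.55 (SE 0.11, adjusted p = 0.00408), and 0.779% of olfactory receptor genes had a change as high. Nefm stood at 4.84, 5.00 and 4.62 in the FR arrays, against 4.59, 4.48 and 4.22 in the DMSO arrays, a gap of 0.028. Its log2 change was 0.39 (SE 0.12, adjusted p = 0.0365), and 5.36% of olfactory receptor genes reached that. Nefm no longer passed when FR replicate 1 or 2 or DMSO replicate 2 or 3 was left out (adjusted p from 0.0662 to 0.138), and with quantile normalization (0.109), centring on array medians (0.0568) or cyclic loess (0.139).

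The heavy chain gene Nefh and the internexin gene Ina had log2 changes of 0.09 (adjusted p = 0.430) and 0.18 (adjusted p = 0.266). Of the 8 further genes of type III and IV intermediate filaments, 1 rose and 1 fell, or 12.5% each way. Among all genes, 13.4% passed as higher and 14.5% as lower. The progenitor gene Nes rose by 0.39 (adjusted p = 0.0172), with a mean over all arrays under 5.65. The Nes call did not hold on leaving out FR replicate 2 (adjusted p = 0.0511) or DMSO replicate 3 (0.0567), nor with quantile normalization or cyclic loess. Vim, the vimentin gene of mesenchymal cells, fell by 0.66 (adjusted p = 9.89e-05). Among all genes dim in both groups, 10.6% passed as higher and 1.57% as lower, which is the background for Nefl and Nefm.

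Gap43 encodes a membrane protein of growth cones and regrowing axons. Its level was 8.85, 8.77 and 8.77 in the FR arrays, against 8.29, 8.51 and 8.15 in the DMSO arrays. The groups did not overlap, and 0 of the 1027 olfactory receptor genes had a group mean as high as that of Gap43 in either group. The log2 change was 0.48 (SE 0.10, 95% interval 0.26 to 0.71, limma adjusted p = 0.00478). Basp1, a related growth cone gene, fell by 0.28 (adjusted p = 0.0231), which did not hold on leaving out any 1 of the DMSO replicates (adjusted p from 0.0636 to 0.0855) or with quantile normalization (0.0560).

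Growth cone and guidance genes split. Of 18 measured, 7 rose and 6 fell, with a median log2 change of 0.12. That was 38.9% higher and 33.3% lower, beside 13.4% and 14.5% of all genes. Nrcam, which encodes a neuronal adhesion molecule, rose by 1.34, and the semaphorin receptor gene Nrp1 by 1.26. The axonal adhesion gene Cntn1 had a mean of 6.07 in FR and of 4.82, under the olfactory level, in DMSO. It passed as higher (adjusted p = 2.75e-06). With DMSO set to 5.65, Cntn1 was 1.34-fold higher. That is no strict lower bound, since the olfactory level was 5.92 in the FR arrays. Sema3a, which encodes a repellent that signals through Nrp1, fell by 1.29 (adjusted p = 3.07e-06). The 6 that fell were 2 without DMSO replicate 2 and 3 without DMSO replicate 3.

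Snap25 encodes the SNARE protein that ties vesicles to the plasma membrane of nerve endings and endocrine cells. Its level was 6.68, 6.43 and 6.08 in the FR arrays, against 4.93, 4.77 and 4.67 in the DMSO arrays. All FR arrays were above 5.65 and all DMSO arrays below it, with a gap of 1.16 between the groups. The log2 change was 1.61 (SE 0.14, 95% interval 1.30 to 1.91, limma adjusted p = 9.99e-06) on the measured values. With DMSO set to the olfactory level of 5.65 in place of its measured dim values, the rise was 1.67-fold. That is no strict lower bound, since the olfactory level was 5.92 in the FR arrays.

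Of 29 other synaptic and secretory vesicle genes measured, 4 rose and 4 fell, or 27.6% in either direction, near the 27.9% of all genes, with a median log2 change of 0.15, and 9 were under 5.65 on every array. Sv2c, which encodes a vesicle glycoprotein, stood at 7.77, 7.56 and 7.54 in the FR arrays, against 6.15, 6.17 and 5.92 in the DMSO arrays. It rose 2.92-fold (log2 change 1.54, adjusted p = 1.52e-06). The vesicle priming gene Unc13a rose by 0.50 on its brightest probe set, while its other 2 gave -0.09 each, and the mean of its probe sets did not pass (adjusted p = 0.462). Sv2b rose by 0.47 within the olfactory range, and the vesicle marker Syp by 0.40 (adjusted p = 0.0249). Syp no longer passed without FR replicate 2 or DMSO replicate 2 or 3 (adjusted p from 0.0589 to 0.0985), nor Sv2b without DMSO replicate 3 (0.0501). The peptide processing gene Cpe fell by 0.58, Nsf and Napa, which encode the machinery that takes SNARE complexes apart, by 0.52 and 0.40, and Syt11 by 0.46, which did not hold without FR replicate 1 or 3 or DMSO replicate 3 (adjusted p from 0.0560 to 0.0742). The 4 that rose were 8 without FR replicate 3 and 2 without DMSO replicate 3.

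The SNARE genes that most cells use for secretion fell in 8 of 11 cases and rose in 0, with a median log2 change of -0.36. Those that fell were 72.7% of the list, beside 14.5% of all genes. Of the 11, 0 were dim in both groups. With dim genes filtered out, 8 of 11 fell, beside 3209 of 12544 genes. Snap23, the broadly used counterpart of Snap25, stood at 9.88, 9.78 and 9.80 in the FR arrays, against 10.24, 10.24 and 10.01 in the DMSO arrays. It fell by 0.34 (adjusted p = 0.0185), which did not hold on leaving out FR replicate 2 or 3 or DMSO replicate 1 or 2 (adjusted p from 0.0502 to 0.0766). The plasma membrane syntaxin genes Stx2 and Stx4a fell by 0.82 and 0.56, Snap47 by 0.56 and the endosomal gene Vamp8 by 0.52. The 8 that fell were 4 without DMSO replicate 1 and 5 without DMSO replicate 2 or 3.

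**Figure D3:**
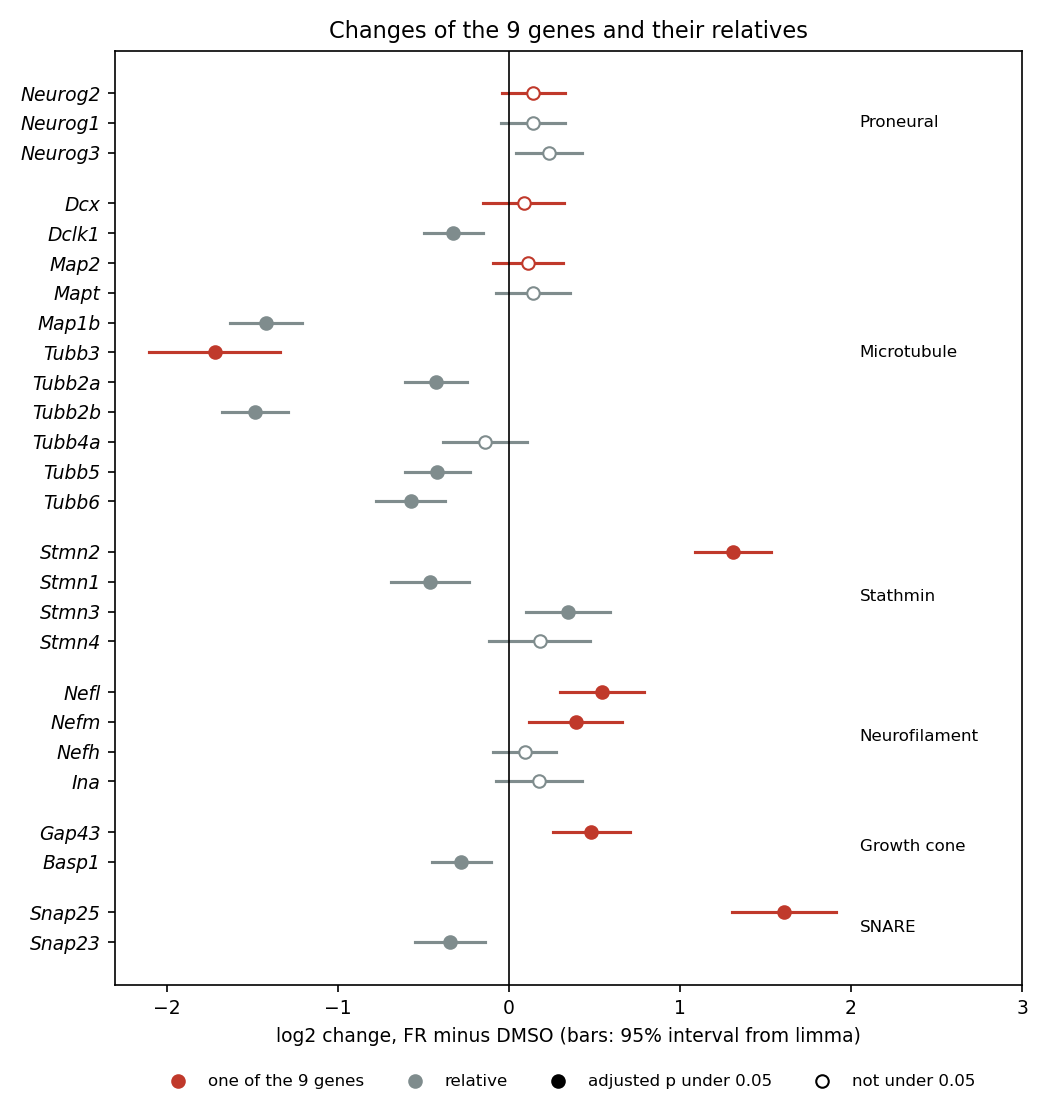
log2 change, FR minus DMSO (x axis, points with 95% intervals from limma), of the 9 neuronal genes in red and their relatives in grey, grouped by role; filled points had adjusted p under 0.05. Among the genes drawn, Tubb3, Tubb2b and Map1b lay furthest to the left and Snap25 and Stmn2 furthest to the right, with Snap23 and Stmn1 on the other side of 0 from them.

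**Figure D4:**
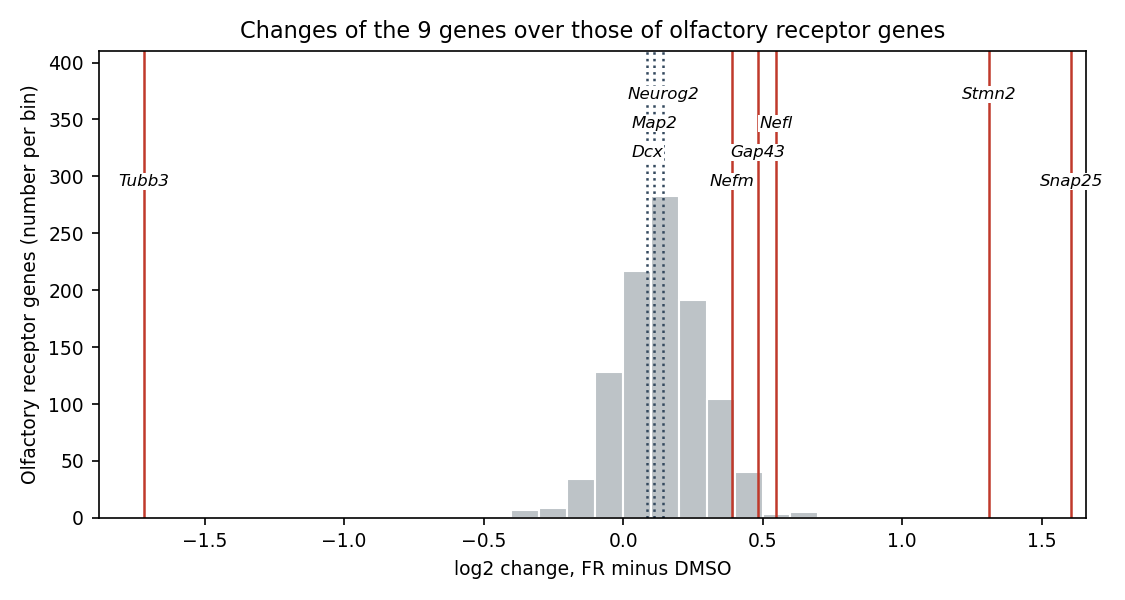
Number of olfactory receptor genes (y axis) by log2 change, FR minus DMSO (x axis, bins of 0.1), with vertical lines at the 9 neuronal genes, solid where adjusted p was under 0.05. Neurog2, Dcx and Map2 lay near the middle of the olfactory genes, Nefm, Gap43 and Nefl in their upper tail, and Tubb3, Stmn2 and Snap25 outside their range of -0.72 to 0.72.

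The 3 largest changes were set beside the genes with the nearest profiles over the 6 arrays, by Euclidean distance after centring each gene on its mean, which is fixed largely by the size of the change. Nearest to Tubb3 were Mmp16, a membrane metalloproteinase gene (distance 0.313), Zdhhc2 (0.351) and Pakap (0.382). Nearest to Snap25 were Add3 (0.276), Nrk (0.297) and Sv2c (0.325), and nearest to Stmn2 were Fam161a (0.166), Atoh8 (0.187) and Nrp1 (0.204). These are descriptions over 6 arrays of 2 groups.

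Markers of cell types were read beside these values. The fibroblast list was bright in both groups, with mean levels of 10.73 to 10.78 in the FR arrays and 10.96 to 11.00 in the DMSO arrays. Of its 12 genes, 4 rose and 7 fell, or 91.7% in either direction. Of all genes, 27.9% passed, and 43.3% with dim genes filtered out. Of 24 neuron markers besides the members, 5 rose and 2 fell, and 13 were under 5.65 on every array. Those that passed were 29.2% of the markers, near the 27.9% of all genes. Means of the list were 5.31 to 5.55 in the FR arrays and 5.25 to 5.27 in the DMSO arrays. The defining genes Rbfox3 and Elavl4 were dim in both groups, with log2 changes of 0.12 (adjusted p = 0.480) and -0.0017 (adjusted p = 0.993). Nova1, a splicing factor gene of neurons, rose by 0.63, Gad2, a GABA synthesis gene, by 0.47 within the olfactory range, and Eno2 and Uchl1, markers of neurons and neuroendocrine cells, fell by 0.48 and 0.47. The 5 that rose were 2 without FR replicate 2, with quantile normalization or with cyclic loess, and 3 without DMSO replicate 2 or 3, and Uchl1 lost its call without FR replicate 3 (adjusted p = 0.0604).

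Other cell types that carry neuronal genes were read in the same way, beside the 27.9% of all genes that passed in either direction. Schwann cell and neural crest markers rose in 2 of 9 cases (Gfra3 by 0.36 and S100b by 0.27), with list means of 5.64 to 5.83 in the FR arrays and 5.51 to 5.63 in the DMSO arrays. Neither held on leaving out FR replicate 2 or any 1 of the DMSO replicates, nor S100b without FR replicate 1 (adjusted p from 0.0559 to 0.126), and both were lost on centring arrays on their medians (0.0615 for Gfra3 and 0.134 for S100b). Of 8 Merkel cell markers, 2 rose, the Isl1 and Atoh1 given above, with 4 under 5.65 on every array and means of 5.73 to 5.87 in the FR arrays and 5.52 to 5.59 in the DMSO arrays. Of 6 pigment cell markers, Tyrp1 rose by 0.42, Pmel by 0.31 and Mitf fell by 1.19, with list means of 5.46 to 5.58 in the FR arrays and 5.51 to 5.59 in the DMSO arrays. The mean of Tyrp1 over all arrays was under 5.65. Pmel lost its call on leaving out any array other than DMSO replicate 3 (adjusted p from 0.0604 to 0.168).

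Larger shifts were seen for muscle, skin surface and fat cells. Skeletal muscle markers rose in 9 of 12 cases, with list means of 6.67 to 6.80 in the FR arrays and 5.83 to 5.93 in the DMSO arrays. Keratinocyte markers rose in 8 of 10 cases (7.06 to 7.24 in the FR arrays and 6.00 to 6.11 in the DMSO arrays), and adipocyte markers in 6 of 7 (8.52 to 8.66 in the FR arrays and 6.85 to 6.93 in the DMSO arrays). None of these lists had a member that fell at the threshold. Across all genes, 13.4% passed as higher and 14.5% as lower. The part of these cell types in the changes of Snap25, Stmn2, Gap43 or Tubb3 was not tested.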

How the data were processed

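Total RNA was labelled as biotinylated cRNA and hybridised to 6 Affymetrix arrays, per the labels' protocols. The deposited table holds log2 values for 35556 probe sets, which the authors made by RMA in the oligo package, per the submitters' processing notes, with versions and build not given in the sources used here.

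Of 21789 probe sets with 1 symbol in the platform annotation, 21698 were matched to GRCm38.p6 by gene identifier. The brightest probe set of each gene was kept, giving 19938 genes. Groups came from array titles. limma 3.58.1 in R 4.3.3 (lmFit, eBayes, group as the only term, two-sided) was fitted to all genes, after a check on simulated data. Intervals use limma's moderated error, and the number of arrays limits precision: the median SE of a log2 change was 0.0962. Array medians were 6.01 to 6.07 in FR and 5.98 to 6.00 in DMSO, and arrays correlated with r from 0.993 to 0.994 within FR, 0.9956 to 0.9961 within DMSO and 0.972 to 0.978 between them, across genes.

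The members, the 17 gene lists and the olfactory level were chosen with earlier results of these data known. Named are the 9 members, their closest relatives, up to 4 genes of each list that passed, by size of change, and the 3 nearest profiles of the 3 largest changes. Rest, Rbfox3, Elavl4, Tuba4a and further list genes named to complete a count were chosen after their values were seen. Alternatives were 3 other scalings, a filter on dim genes, 2 ways to treat probe sets, 4 variance models or thresholds, a replicate block, and each array left out in turn.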

Additional observations from a re-analysis of the deposited data

How the results depend on the processing

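Tubb3 lower and Stmn2 and Snap25 higher kept direction and call under every alternative that tested them: log2 changes ran from -1.90 to -1.51 for Tubb3, 1.23 to 1.41 for Stmn2 and 1.47 to 1.76 for Snap25. Of the 9 genes, 5 passed as higher, and 4 to 5 with 1 array left out. They were 2 with dim genes filtered out, since 3 of the 9 remained (Snap25 was removed), 2 with variance not moderated and 2 in a test against a log2 change of 0.5. The number lower was 1 throughout. Of 144 genes in the 9 family lists, 65 passed, 46 to 64 with 1 array left out and 13 in the test against 0.5. Under cyclic loess the log2 changes of Dcx and Map2 turned to -0.012 and -0.0095; the cause was not tested. Gap43 and Nefl lost their calls without moderated variance (adjusted p = 0.0577 and 0.0680) and against 0.5, and Nefm lost its call under 9 alternatives. Of all genes, 2671 passed as higher and 2888 as lower, against 1880 and 3447 with arrays centred on their medians, 842 in all in the test against 0.5 and 3364 without moderation. Arrays with the same replicate number showed no shared deviation (correlations of deviations -0.073, 0.047 and -0.034). Whether they were paired by design cannot be told from these values. With the replicate block, 5 of the 9 genes passed as higher and 1 as lower, and 61 of the list genes passed, with 4977 of all genes in place of 5559. Of the other genes named, Atoh1, Gfra3, Pmel, S100b and Tcf4 lost their calls with the block (adjusted p from 0.0511 to 0.0687). Background correction could not be varied from RMA values, and dim genes cannot be told from background by level alone.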
